A study of Homo sapiens with 6 samples.

Results

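Synaptic vesicle and exocytosis genes were followed in LA1-55n, a human neuroblastoma cell line, across 3 arrays of cells with a doxycycline-inducible (teton) hairpin against GFP (shGFP) and 3 arrays of cells with an inducible hairpin against glycine decarboxylase (shGLDC99). Members were picked by gene symbol alone. Taken were all symbols starting with SYT or STX before a digit, or with STXBP, VAMP, CPLX, SV2, RIMS, RAB3 or UNC13. A short list of synapsins, synaptophysin, SNAP proteins, active zone scaffolds and CAPS proteins was added. The rule gave 75 genes of the 14779 named genes on the array. Of these, 69 are protein-coding, and 6 are antisense, divergent, pseudogene or read-through transcripts taken in by their names. One of the latter, RAB30-DT, matched the letters RAB3 although RAB30 is no RAB3 GTPase. Both groups grew with 0.5 µg/ml doxycycline for 7 days, so the drug was shared and hairpin induction was not compared with no induction. Each group is 1 hairpin in 1 cell line, and whether the cells were clones or pools is not stated. Replicates are called independent samples without further detail, so the p-values describe the spread among these 6 arrays, which may be technical.

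Neurons and neuroendocrine cells release transmitters and peptides by fusing vesicles with the plasma membrane. Fusion is driven by SNARE proteins: VAMPs on the vesicle, and syntaxins with SNAP25-type proteins on the target membrane. Munc18 and tomosyn proteins (STXBP genes), complexins and Munc13 proteins (UNC13 genes) control SNARE assembly, synaptotagmins (SYT genes) sense calcium or guide traffic, and RIM, bassoon and piccolo hold vesicles at the active zone. Sympathetic neuroblastoma cells carry both small clear vesicles and dense-core vesicles with catecholamines and granins. Other syntaxins and VAMPs act at endosomes, the Golgi and the endoplasmic reticulum in all cells.

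The 6 arrays had medians of 4.28 to 4.33 on the deposited scale, read here as log2 intensity. GLDC, the targeted transcript, fell by 2.00 ± 0.10 (SE) in log2 units (4.01-fold lower), and its groups did not overlap (limma adjusted p = 0.00101). Of 12 listed adrenergic neuroblastoma markers 10 were measured, and 9 of these lay no lower than the median over all genes, 5.09. Of the 10, 3 fell and 1 rose (40%), against 8.52% of all genes and 14.1% of genes at or above the median level. The mean log2 level of the 10 was 7.18 to 7.30 across the shGFP arrays and 7.06 to 7.18 across the shGLDC99 arrays. Those that fell were the transcription factors ISL1 (log2 difference -1.09), GATA2 (-0.56) and GATA3 (-0.48), and the granule protein gene CHGB rose by 0.41 (limma adjusted p = 0.00412, 0.0122, 0.0161 and 0.0145). With 1 array left out, ISL1 kept its call in all 6 fits, GATA2 in 4, CHGB in 2 and GATA3 in 1. Markers of other cells a culture could hold had mean log2 levels, over each list and array, between 2.76 and 3.90. Those measured were 4 of 8 listed Schwann and glial, 3 of 8 fibroblast, 3 of 8 leukocyte, 5 of 6 epithelial and 3 of 6 endothelial genes. The rest of these lists was not measured. Of the 18 measured, 16 lay below the median gene level. LUM, a fibroblast proteoglycan, was the 1 marker of another cell type that rose, by 0.52 (limma adjusted p = 0.0125). It read 3.43 to 3.54 on the shGFP arrays and 3.91 to 4.11 on the shGLDC99 arrays, below the median gene level in both groups. The mean of the 3 fibroblast markers, LUM among them, was 3.57 to 3.64 across the shGFP arrays and 3.79 to 3.89 across the shGLDC99 arrays. The part of other cells, or of a shift in these markers, in the differences below was not tested.

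Of the 75 members, 7 rose and 6 fell in shGLDC99 cells, and 62 did not pass an adjusted p of 0.05. The 13 changed members are 17.3% of the genes in the list, against 8.52% of all 14779 genes tested. Rises made up 9.33% of members against 3.72% of all genes, and falls 8% against 4.8%. Brighter probe sets were called more often in the whole table: among genes at or above the median level, 22% of 50 members and 14.1% of 7390 genes changed. The list had no common direction. Its median log2 difference was -0.03, against -0.01 over all genes, with 34 members above 0 and 41 below. Differences were small: 9 members differed by at least 0.5 on the log2 scale, 29 by under 0.1, and 0 by 1 or more. Leaving out shGFP a, shGFP b or shGLDC99 b left 3 rises each, and leaving out shGLDC99 a left 4. Falls over the 6 such fits numbered 4 to 5. In these fits 7 to 10 of the 75 members changed, while the share of all genes called dropped from 8.52% to between 3.12% and 3.69%. The rises numbered 13 both without the dimmest 40% of genes and with a prior variance that follows intensity. More genes were called in the whole table too. In the former setting 19 of the 59 members in the fit changed, and 25% of all genes in it. In the latter 19 of 75 members changed, and 16.5% of all genes. Both settings added BSN, RAB3GAP2, STX2, STX3, SYT7 and VAMP4 and dropped STXBP2, the former also added SYP and the latter SYN1. The 7 that rose were SYN3, SYT11, STXBP5, RIMS1, STX12, STX6 and STXBP2. The 6 that fell were SYT2, CADPS, SYT4, VAMP1, SYN2 and SYT10. In cultures measured as bulk RNA, fewer cells with a transcript and less of it per cell cannot be told apart.

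**Figure D1:**
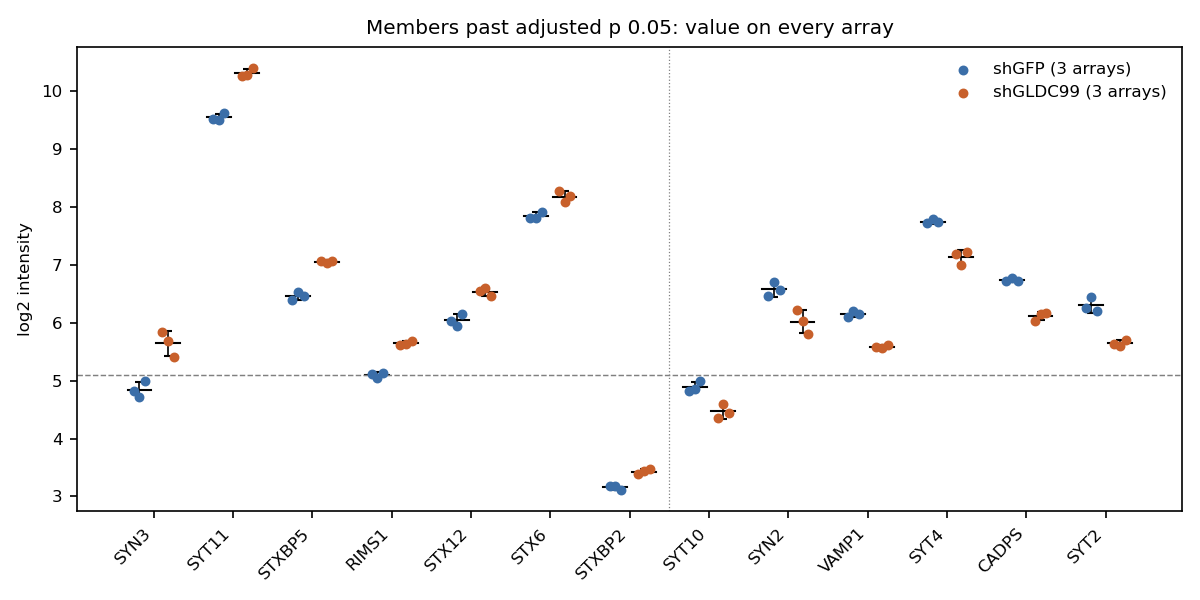
Log2 intensity of the 13 changed members on each of the 6 arrays (points), with group mean (bar) and SD (whisker), rises left of the dotted line and falls right of it. The dashed line is the median gene level, 5.09; no shGFP point of any of these genes overlaps its shGLDC99 points, and STXBP2 and SYT10 lie below the dashed line in both groups.

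The reference table held the promoters of 12 of the 13 changed members. The 5 printed here are chosen after the values were seen: SYT11 and SYT4, close relatives of which one rose and one fell, VAMP1, the vesicle SNARE that fell, and STX12 and STX6, the endosomal syntaxins that rose. Each line is the 250 bases before the RefSeq start site on GRCh38.p14, 5′ to 3′ along the gene. Capitals mark the cyclic AMP response element TGACGTCA, its core TGACG, and the E-box CACGTG, searched on both strands, so that CGTCA in capitals is the core read on the other strand. The windows are chr1:155859317-155859566, plus strand (SYT11); chr18:43277491-43277740, minus strand (SYT4); chr12:6470678-6470927, minus strand (VAMP1); chr1:27772969-27773218, plus strand (STX12); and chr1:181022871-181023120, minus strand (STX6).
SYT11: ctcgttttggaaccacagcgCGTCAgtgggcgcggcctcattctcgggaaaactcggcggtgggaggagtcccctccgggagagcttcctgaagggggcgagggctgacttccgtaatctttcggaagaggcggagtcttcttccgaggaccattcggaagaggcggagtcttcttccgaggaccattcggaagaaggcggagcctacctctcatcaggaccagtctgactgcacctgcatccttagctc
SYT4: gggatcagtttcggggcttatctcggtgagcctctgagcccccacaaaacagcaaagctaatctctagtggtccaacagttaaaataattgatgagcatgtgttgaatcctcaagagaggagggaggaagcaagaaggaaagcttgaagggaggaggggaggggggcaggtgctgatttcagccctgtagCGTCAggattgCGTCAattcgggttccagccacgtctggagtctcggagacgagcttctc
VAMP1: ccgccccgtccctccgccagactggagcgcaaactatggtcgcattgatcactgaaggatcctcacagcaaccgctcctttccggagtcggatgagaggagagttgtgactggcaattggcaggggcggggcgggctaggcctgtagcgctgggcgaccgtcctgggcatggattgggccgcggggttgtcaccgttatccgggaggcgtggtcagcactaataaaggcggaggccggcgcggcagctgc
STX12: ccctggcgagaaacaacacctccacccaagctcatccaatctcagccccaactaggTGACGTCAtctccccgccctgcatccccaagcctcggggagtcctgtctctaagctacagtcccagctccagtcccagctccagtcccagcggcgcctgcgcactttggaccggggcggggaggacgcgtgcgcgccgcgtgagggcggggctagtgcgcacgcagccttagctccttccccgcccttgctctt
STX6: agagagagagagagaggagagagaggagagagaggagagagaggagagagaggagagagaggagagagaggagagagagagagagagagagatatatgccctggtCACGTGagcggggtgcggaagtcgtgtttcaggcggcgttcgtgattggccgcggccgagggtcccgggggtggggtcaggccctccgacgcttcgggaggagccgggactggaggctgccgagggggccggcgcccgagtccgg
The core TGACG stood in the SYT11 window and in the SYT4 window, although SYT11 rose and SYT4 fell. STX12 held the full TGACGTCA, which contains the core on both strands, and STX6 held CACGTG. VAMP1 held none of the marked motifs.

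Among the 12 promoters of changed members, TGACG was found in 4 (33.3%), against 17 of 56 protein-coding members with a window (30.4%), 26.2% of the 10715 promoters of measured genes and 21.7% of all 27305 promoters of the same length. TGACGTCA was found in 1 of the 12 (STX12), in 3 of the 56 (5.36%), in 2.34% for measured genes and in 1.77% of all. CACGTG stood in 2 of the 12, STX6 and STXBP2, in 8 of the 56 (14.3%), in 7.93% for measured genes and in 6.49% of all. The GC box GGGCGG was in 8 of the 12, in 40 of the 56 (71.4%), in 57.9% for measured genes and in 42.3% of all, and the median GC content was 66.8% over the 56 members and 58% over all promoters. The TATA box TATAAA was in 0 of the 56, in 8.15% for measured genes and in 11.1% of all. CCAAT was in 5 of the 12 (41.7%), in 14 of the 56 (25%), in 34.3% for measured genes and in 33% of all. The RE1 element bound by the repressor REST was searched as its left part TTCAGCACC and its right part GGACAGCGC. The left part was in 0 of the 12, 1 of the 56, 0.252% for measured genes and 0.3% of all promoters, and the right part in 0 of the 12, 2 of the 56, 0.663% for measured genes and 0.469% of all. REST itself fell (log2 difference -1.39 ± 0.103 SE, limma adjusted p = 0.00211), and its part in the differences of members was not tested. These matches describe letters in a short window and no more.

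Among the vesicle and target SNAREs, VAMP1 fell while the related VAMP2 did not pass the test. VAMP1, a synaptic vesicle SNARE prominent in spinal and motor neurons, read 6.10, 6.20 and 6.16 on the shGFP arrays and 5.58, 5.56 and 5.61 on the shGLDC99 arrays. The groups lay far apart against SDs of 0.0511 and 0.0226. VAMP1 fell by 0.57 ± 0.0617 (SE) in log2 units, which is 1.48-fold lower (limma adjusted p = 0.00611). VAMP2, the main vesicle SNARE of brain synapses, read 7.68, 7.61 and 7.65 on the shGFP arrays and 7.70, 7.82 and 7.65 on the shGLDC99 arrays. Those groups overlapped, and the difference of 0.08 had a 95% interval of -0.09 to 0.25 (limma adjusted p = 0.543). VAMP4, which works at the trans-Golgi network, read 6.87, 6.99 and 6.98 on the shGFP arrays and 7.20, 7.18 and 7.45 on the shGLDC99 arrays. All shGLDC99 values of VAMP4 were the higher ones, yet the difference of 0.33 missed the threshold (limma adjusted p = 0.0766). It passed without the dimmest 40% of genes (limma adjusted p = 0.0282) and with a prior variance that follows intensity (limma adjusted p = 0.0105). The other 4 VAMP genes, VAMP3, VAMP5, VAMP7 and VAMP8, differed by -0.11 to 0.13. So 1 of 7 VAMPs changed (14.3%), against 8.52% of all genes and 14.1% of those at or above the median level.

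Of the 6 plasma membrane syntaxins 0 passed the test, with differences of -0.12 to 0.32 and a median of 0.10. STX1A, the neuronal target SNARE, read 6.20, 6.47 and 6.39 on the shGFP arrays and 6.61, 6.73 and 6.41 on the shGLDC99 arrays. Its groups overlapped, and the difference of 0.23 had an interval of -0.03 to 0.50 (limma adjusted p = 0.264). STX3, which serves apical and dendritic exocytosis, read 5.85, 5.85 and 6.13 on the shGFP arrays and 6.29, 6.35 and 6.16 on the shGLDC99 arrays. The groups of STX3 did not overlap, with a difference of 0.32 (limma adjusted p = 0.108). STX2, a broadly used plasma membrane syntaxin, also stood higher on all shGLDC99 arrays, by 0.25 (limma adjusted p = 0.0826).

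Of the 8 measured syntaxins of endosomes, the Golgi and the endoplasmic reticulum, 2 rose and 0 fell. The changed share was 25%, against 8.52% of all genes and 14.1% of those at or above the median level. STX12, also called syntaxin 13, a SNARE of recycling endosomes, read 6.03, 5.94 and 6.16 on the shGFP arrays and 6.55, 6.60 and 6.46 on the shGLDC99 arrays. Its rise of 0.50 ± 0.0812 (SE), or 1.41-fold, exceeded the spread in either group (limma adjusted p = 0.0167). STX6, a SNARE of the trans-Golgi network and early endosomes, read 7.81, 7.80 and 7.91 on the shGFP arrays and 8.27, 8.08 and 8.18 on the shGLDC99 arrays. Its rise was 0.33 ± 0.0757 (SE), or 1.26-fold (limma adjusted p = 0.0440). The STX6 call was the less firm: leaving out any 1 of the 6 arrays ended it (limma adjusted p = 0.0662 to 0.125), as did centring the arrays on their medians (limma adjusted p = 0.0594) and testing all probe sets (limma adjusted p = 0.0728). STX12 lost its call without shGFP a, shGFP b, shGLDC99 a or shGLDC99 b (limma adjusted p over the 6 such fits = 0.0369 to 0.0627). The other 6 genes, STX5, STX7, STX8, STX10, STX17 and STX18, differed by -0.14 to 0.10.

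The syntaxin-binding proteins held 2 rises among 6 measured genes and 0 falls. The changed share was 33.3%, against 8.52% of all genes and 14.1% of those at or above the median level. STXBP5, or tomosyn, occupies target SNAREs and so limits vesicle priming. It read 6.39, 6.53 and 6.47 on the shGFP arrays and 7.07, 7.02 and 7.06 on the shGLDC99 arrays. The groups were narrow and well apart, and STXBP5 rose by 0.59 ± 0.0647 (SE), or 1.50-fold (limma adjusted p = 0.00622). Its antisense transcript STXBP5-AS1, a member by name, read 2.68, 2.89 and 2.56 on the shGFP arrays and 2.39, 2.49 and 2.42 on the shGLDC99 arrays. It was lower on all shGLDC99 arrays, with a difference of -0.28, at levels below the median gene level in both groups (limma adjusted p = 0.132). It overlaps STXBP5 in the reference, and the strand read by these probe sets was not determined.

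STXBP2, or Munc18-2, known for granule release in blood and epithelial cells, read 3.18, 3.19 and 3.11 on the shGFP arrays and 3.38, 3.43 and 3.47 on the shGLDC99 arrays. All 6 values fall under the median gene level, where signal was not separated from background. STXBP2 rose by 0.27 ± 0.0627 (SE) (limma adjusted p = 0.0484). Leaving out any 1 of the 6 arrays ended this call (limma adjusted p = 0.0937 to 0.138), as did centring the arrays on their medians (limma adjusted p = 0.0649), testing all probe sets (limma adjusted p = 0.0860) and a prior variance that follows intensity (limma adjusted p = 0.220). The tomosyn relative STXBP5L differed by 0.04, and STXBP3, STXBP4 and STXBP6 by -0.06, 0.0048 and 0.19; STXBP6 was higher on all shGLDC99 arrays without passing the test.

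Complexins, small proteins that clamp and then assist assembled SNAREs, had differences below 0 in all 4 genes, from -0.26 to -0.09 with a median of -0.24, and 0 passed the test. CPLX1, a main brain complexin, read 7.08, 7.30 and 7.50 on the shGFP arrays and 7.06, 7.05 and 7.002 on the shGLDC99 arrays. The shGLDC99 values all lay below the shGFP values, although shGFP a lay just above shGLDC99 a, and the difference of -0.26 had an interval of -0.52 to 0.01 (limma adjusted p = 0.216). CPLX2 differed by -0.24 with overlapping groups. CPLX3 and CPLX4 lay below the median gene level in both groups.

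Of the 6 priming factors 1 fell and 0 rose (16.7% changed, against 8.52% of all genes). CADPS, or CAPS1, which primes dense-core vesicles for release, read 6.71, 6.76 and 6.72 on the shGFP arrays and 6.03, 6.14 and 6.17 on the shGLDC99 arrays. Its groups were more than 0.5 apart. CADPS fell by 0.62 ± 0.0672 (SE), or 1.53-fold lower (limma adjusted p = 0.00614). Its paralog CADPS2 differed by -0.27 at levels below the median gene level (limma adjusted p = 0.331). UNC13A, the main Munc13 of excitatory synapses, read 7.24, 7.20 and 7.25 on the shGFP arrays and 7.26, 7.21 and 7.17 on the shGLDC99 arrays. The UNC13A groups overlapped, and the interval of the difference, -0.16 to 0.13, was narrow around -0.01. UNC13B and UNC13C differed by -0.09 and -0.10. UNC13D, known from granule release in blood cells, was higher on all shGLDC99 arrays by 0.24 (limma adjusted p = 0.147).

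At the active zone, RIMS1 rose and the other 4 measured scaffolds did not pass the test (20% changed, against 8.52% of all genes). RIMS1, which tethers vesicles to calcium channels and to Munc13, read 5.11, 5.04 and 5.14 on the shGFP arrays and 5.61, 5.62 and 5.69 on the shGLDC99 arrays. Both groups spread over about 0.1 or less. The rise was 0.55 ± 0.0641 (SE), or 1.46-fold (limma adjusted p = 0.00724), from a shGFP level that sits at the median gene level. RIMS2 and RIMS4, its paralogs, differed by -0.04 and -0.03 with overlapping groups. BSN, the scaffold bassoon, read 5.44, 5.54 and 5.50 on the shGFP arrays and 5.85, 5.71 and 5.76 on the shGLDC99 arrays. Its groups did not overlap, and the difference of 0.28 came close to the threshold (limma adjusted p = 0.0542). PCLO, the related piccolo, differed by -0.0066, with an interval of -0.22 to 0.21.

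**Figure D2:**
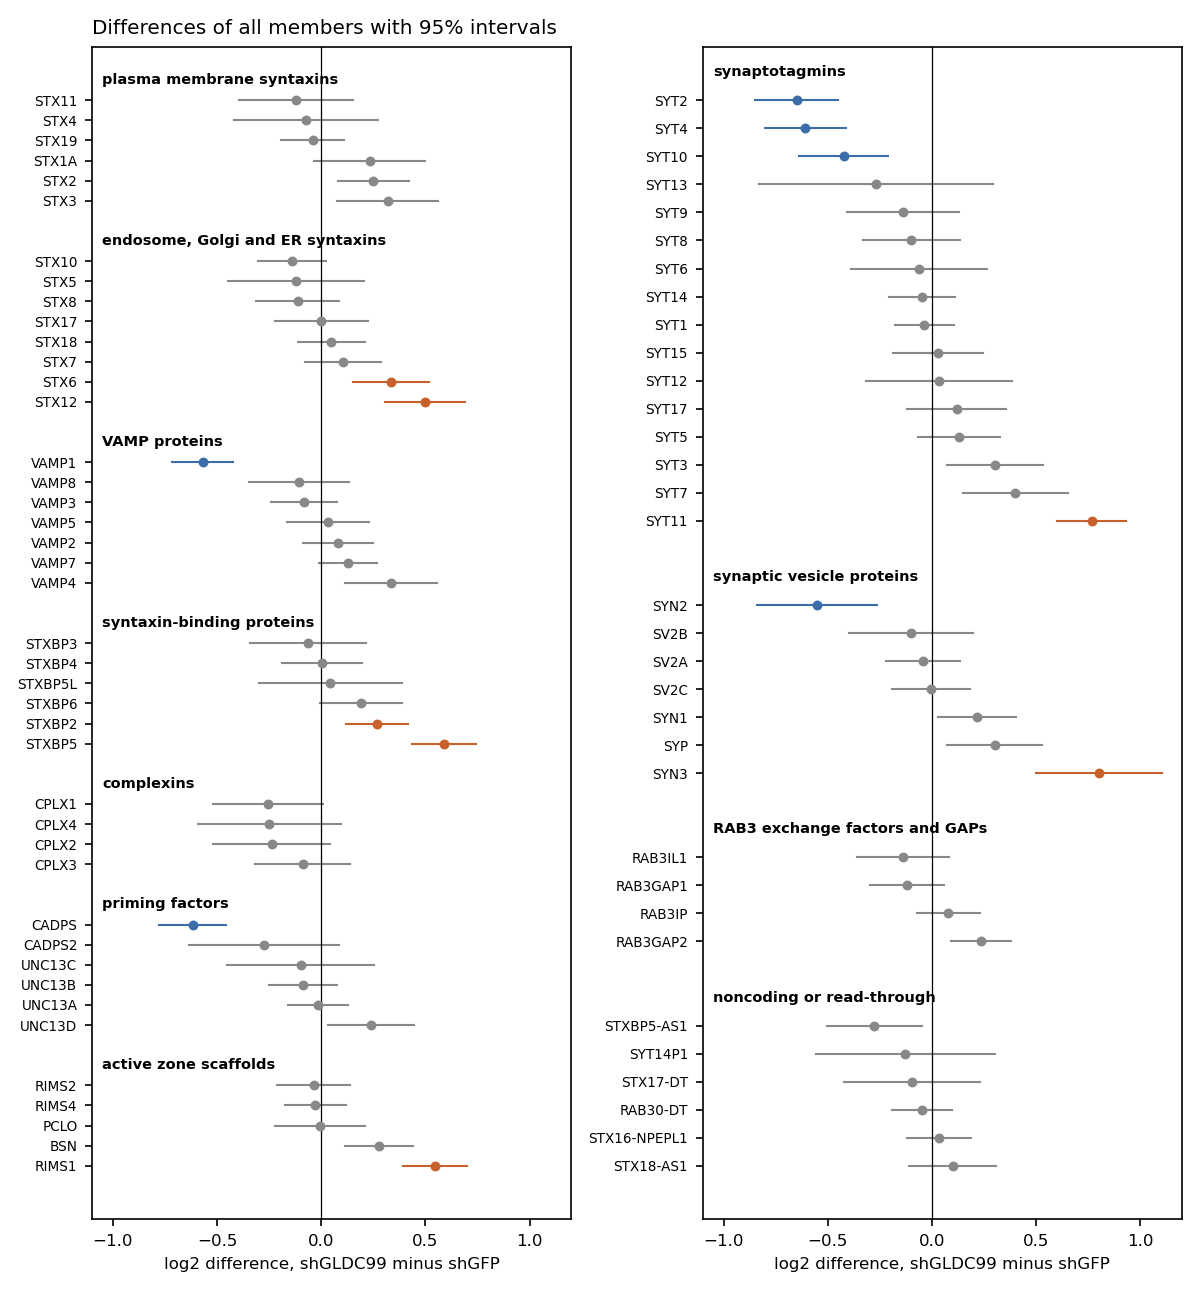
Log2 difference (shGLDC99 minus shGFP) of each of the 75 members with its 95% interval from limma, grouped by role; orange marks the 7 genes that rose, blue the 6 that fell and grey the 62 not past adjusted p 0.05. Changed genes sit beside paralogs not past the threshold, and all 4 complexins lie left of 0 with intervals that cross it.

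Synaptotagmins were the largest family, with 16 genes measured, of which 1 rose, 3 fell and 12 did not pass the test. The changed share was 25%, against 8.52% of all genes and 14.1% of those at or above the median level. Of the 16 synaptotagmins, 9 lay at or above that level. SYT11, a synaptotagmin that does not bind calcium and is linked to vesicle recycling and traffic, read 9.52, 9.50 and 9.61 on the shGFP arrays and 10.26, 10.27 and 10.39 on the shGLDC99 arrays. The shGLDC99 arrays all read higher, with little spread in either group. SYT11 rose by 0.77 ± 0.0698 (SE), or 1.70-fold (limma adjusted p = 0.00378). An exact two-sided permutation test on its 6 values gave p = 0.1, the smallest that 3 against 3 arrays allows.

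SYT4, found on dense-core vesicles and lacking calcium binding in its first C2 domain, read 7.71, 7.78 and 7.73 on the shGFP arrays and 7.19, 6.99 and 7.22 on the shGLDC99 arrays. SYT4 fell by 0.61 ± 0.0818 (SE), or 1.52-fold lower (limma adjusted p = 0.00975). It is the closest relative of SYT11 in the family, and the groups of both genes stood apart in opposite directions. SYT2, a fast calcium sensor of synaptic vesicles, read 6.25, 6.44 and 6.20 on the shGFP arrays and 5.64, 5.60 and 5.70 on the shGLDC99 arrays. SYT2 fell by 0.65 ± 0.0837 (SE), or 1.57-fold lower (limma adjusted p = 0.00885). SYT1, the fast sensor of most forebrain synapses, read 7.92, 7.93 and 7.89 on the shGFP arrays and 7.88, 7.91 and 7.84 on the shGLDC99 arrays. Its groups overlapped, with a difference of -0.04 and an interval of -0.18 to 0.11 (limma adjusted p = 0.763).

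SYT10, a calcium sensor of peptide-containing vesicles, read 4.82, 4.86 and 4.99 on the shGFP arrays and 4.35, 4.60 and 4.45 on the shGLDC99 arrays, all below the median gene level and not shown to exceed background. SYT10 fell by 0.42 ± 0.0894 (SE) (limma adjusted p = 0.0358), and its call was lost without shGFP a, b or c or without shGLDC99 a or c (limma adjusted p over the 6 fits with 1 array left out = 0.0482 to 0.108). Testing all probe sets also ended it (limma adjusted p = 0.0565). SYT7, a slow calcium sensor also found on lysosomes, read 5.95, 6.001 and 6.30 on the shGFP arrays and 6.46, 6.42 and 6.56 on the shGLDC99 arrays. The groups of SYT7 did not overlap, with a difference of 0.40 that missed the threshold (limma adjusted p = 0.0661). Without shGFP c, SYT7 passed it (limma adjusted p = 0.0410, difference 0.51). It also passed after a second quantile normalization (limma adjusted p = 0.0474), without the dimmest 40% of genes (limma adjusted p = 0.0241) and with a prior variance that follows intensity (limma adjusted p = 0.0121). SYT3 was higher on all shGLDC99 arrays by 0.30 (limma adjusted p = 0.110), below the median gene level. The 10 genes with overlapping groups, SYT1 among them, differed by -0.27 (SYT13) to 0.13 (SYT5). The pseudogene SYT14P1 was listed at 1.08 to 1.82 and the read-through STX16-NPEPL1 at 5.48 to 5.61. SYT14 itself read 8.70 to 8.83, far above its pseudogene. Signal of STX16-NPEPL1 and of STX16 may not be separable. STX17-DT, RAB30-DT and STX18-AS1 differed by -0.10, -0.05 and 0.10, and 0 of the 6 such transcripts passed the test.

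**Figure D3:**
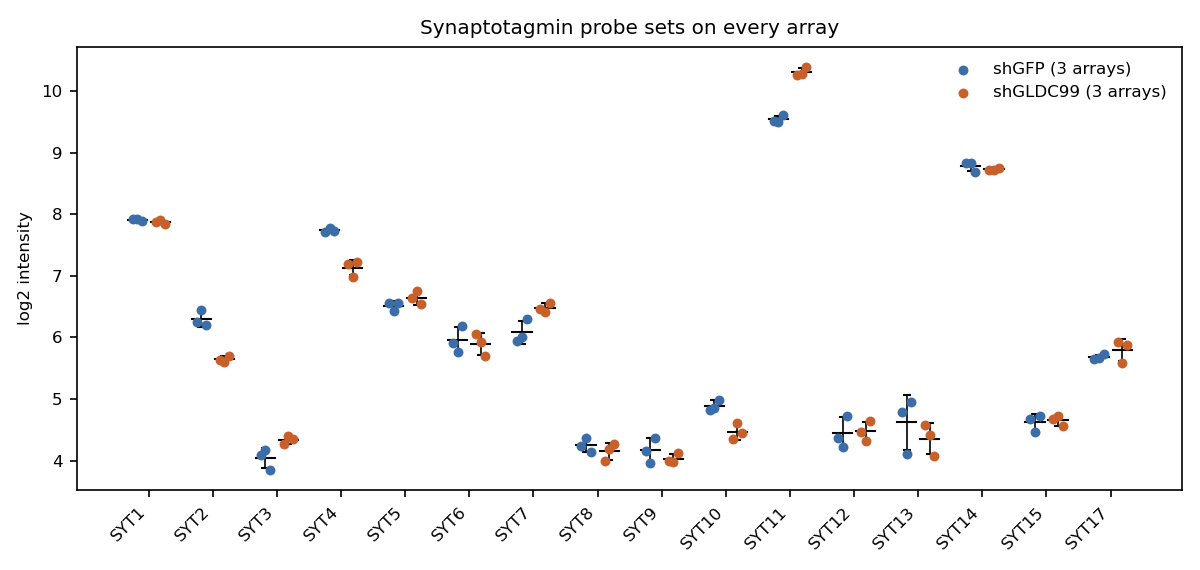
Log2 intensity of the 16 synaptotagmin genes on each array (points) with group mean (bar) and SD (whisker). The groups of SYT2, SYT4 and SYT10 (lower in shGLDC99) and of SYT3, SYT7 and SYT11 (higher) do not overlap, while those of SYT1 and the other 9 genes do.

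Among the 7 measured synaptic vesicle proteins, SYN3 rose, SYN2 fell and 5 did not pass the test. The changed share was 28.6%, against 8.52% of all genes and 14.1% of those at or above the median level. Synapsins coat vesicles and hold them in the reserve pool. SYN3, the synapsin of early neuronal development, read 4.83, 4.71 and 4.99 on the shGFP arrays and 5.84, 5.68 and 5.41 on the shGLDC99 arrays. It rose by 0.80 ± 0.127 (SE), or 1.74-fold (limma adjusted p = 0.0152), from a shGFP level below the median gene level that is not shown to exceed background. SYN2 read 6.45, 6.70 and 6.56 on the shGFP arrays and 6.22, 6.04 and 5.81 on the shGLDC99 arrays. It fell by 0.55 ± 0.120 (SE), or 1.47-fold lower (limma adjusted p = 0.0395). SYN3 lost its call without shGFP a, shGFP b or shGLDC99 b (limma adjusted p over the 6 fits = 0.0255 to 0.0581), and SYN2 kept it only without shGLDC99 a (limma adjusted p over the 6 fits = 0.0471 to 0.112). Testing all probe sets also ended the SYN2 call (limma adjusted p = 0.0572).

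SYN1, the most studied synapsin, read 7.70, 7.81 and 7.93 on the shGFP arrays and 8.08, 8.004 and 8.01 on the shGLDC99 arrays. It was higher on all shGLDC99 arrays by 0.22, short of the threshold (limma adjusted p = 0.149). SYP, which encodes synaptophysin, the classical vesicle membrane marker, read 5.79, 5.63 and 5.69 on the shGFP arrays and 6.13, 6.05 and 5.83 on the shGLDC99 arrays. Its difference of 0.30 did not pass (limma adjusted p = 0.110), and a dimmer second probe set gave 0.09. SV2A, a vesicle glycoprotein, read 7.50, 7.68 and 7.64 on the shGFP arrays and 7.63, 7.53 and 7.53 on the shGLDC99 arrays, with overlapping groups and an interval of -0.22 to 0.14. SV2B and SV2C differed by -0.10 and -0.0037.

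Each synapsin gene shares its place in the genome with a gene of the TIMP family, which encodes inhibitors of matrix metalloproteinases. The RefSeq table places TIMP3 within the span of SYN3, TIMP4 within that of SYN2 and TIMP1 within that of SYN1. TIMP3 read 5.36, 4.96 and 5.56 on the shGFP arrays and 6.12, 6.22 and 6.31 on the shGLDC99 arrays. It rose together with SYN3, by 0.92 ± 0.152 (SE), or 1.89-fold (limma adjusted p = 0.0174). The TIMP3 call was lost without shGFP a or without shGLDC99 a, b or c (limma adjusted p over the 6 fits with 1 array left out = 0.0295 to 0.0667). TIMP1 was higher by 0.36 without passing the test (limma adjusted p = 0.0761), in the same direction as SYN1, whereas ARAF, which also overlaps SYN1, fell by 0.29 (limma adjusted p = 0.0417). The ARAF call was lost in each of the 6 fits with 1 array left out (limma adjusted p = 0.0885 to 0.123). TIMP4, at levels below the median gene level, differed by 0.12 while SYN2 fell. Whether the SYN3 probe set reads any TIMP3 transcript was not tested. Among the other changed members with a measured overlapping gene, TAPBPL, which overlaps VAMP1, differed by -0.03, and PET100 and PCP2, which overlap STXBP2, by -0.09 and -0.18, with 0 of these 3 past the threshold.

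**Figure D4:**
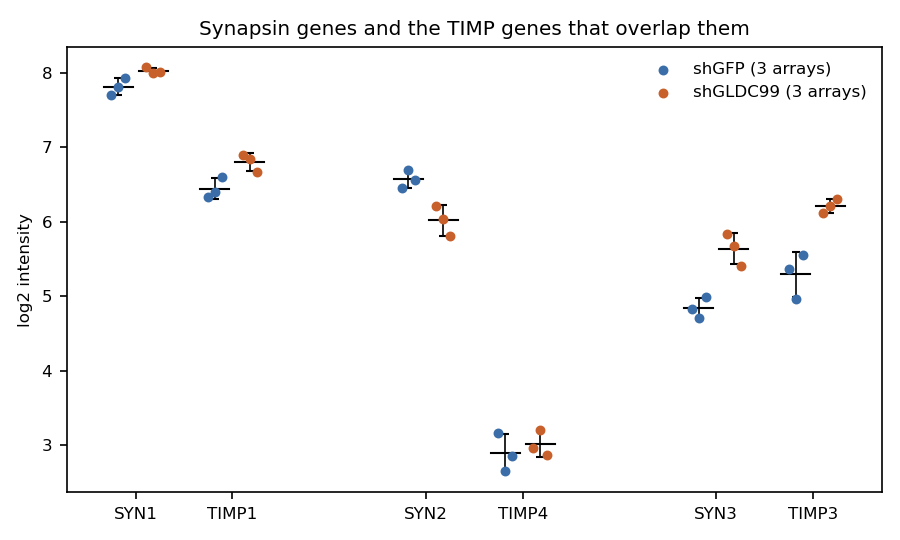
Log2 intensity of the 3 synapsin genes and of the TIMP gene that overlaps each in the reference, on every array (points), with group mean (bar) and SD (whisker). SYN3 and TIMP3 are both higher on all shGLDC99 arrays; SYN2 is lower on all of them while the TIMP4 groups overlap.

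Regulators of the RAB3 GTPases, which mark vesicles before docking, did not pass the test in any of the 4 measured genes. RAB3GAP2, a subunit of the complex that switches RAB3 off, was higher on all shGLDC99 arrays by 0.23 (limma adjusted p = 0.0627), whereas its partner RAB3GAP1 differed by -0.12 with overlapping groups. RAB3IP and RAB3IL1, exchange factors that act on RAB8 and on RAB3, differed by 0.08 and -0.14. The RAB3 GTPases themselves, the SNAP25 family, STX16, RIMS3 and SYT16 were not analysed here.

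Groups without overlap were found for 30 members (40%), against 30.8% of all genes. Of these, 20 were higher and 10 lower in shGLDC99 cells (26.7% and 13.3% of members), while over all genes the shares were 14.5% higher and 16.3% lower. Among genes at or above the median level, the members' share was 48% and that of all genes 46.8%, so the total is near the background once level is matched. In that range 32% of 50 members were higher, against 21.4% of genes, and 16% were lower, against 25.4%. All 13 changed members kept their direction under each alternative that could be run (STXBP2 was not in the fit without the dimmest 40% of genes). CADPS, RIMS1, STXBP5, SYT11 and VAMP1 stayed past the threshold in all 13 alternatives. SYT2 and SYT4 did so in 12 of 13, among them each of the 6 fits with 1 array left out.

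**Figure D5:**
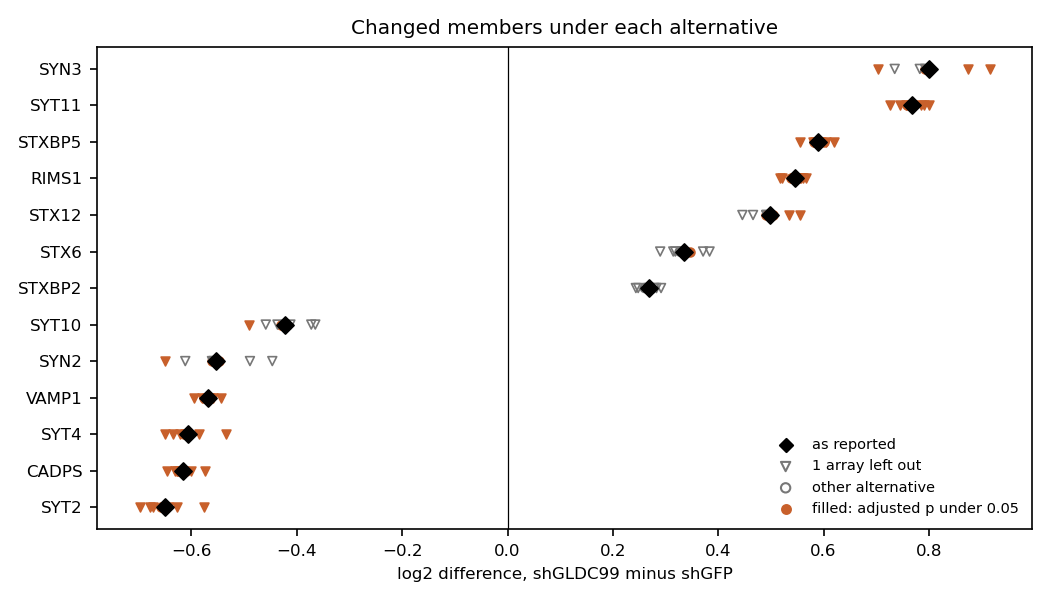
Log2 difference (shGLDC99 minus shGFP) of the 13 changed members as reported (black diamonds), with 1 array left out (triangles) and under the other alternatives (circles); filled orange symbols have adjusted p under 0.05 and open grey ones do not. Open symbols gather on STX12, STX6, STXBP2, SYT10, SYN2 and SYN3, and no symbol crosses 0.

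Of the genes listed for neighbouring steps of the vesicle cycle 55 were measured, and 0 rose and 3 fell. The changed share was 5.45%, against 8.52% of all genes and 14.1% of those at or above the median level, where 39 of the 55 lay. The median log2 difference of the 55 was 0.03. AMPH, or amphiphysin, which senses membrane curvature in clathrin endocytosis, read 7.41, 7.36 and 7.37 on the shGFP arrays and 6.90, 7.03 and 6.97 on the shGLDC99 arrays. It fell by 0.41 ± 0.0647 (SE) (limma adjusted p = 0.0145). EPN2, an epsin of clathrin pits, fell by 0.40 ± 0.0793 (SE) (limma adjusted p = 0.0287). So 2 of 16 endocytosis genes fell (12.5%) and 0 rose. Falls made up 4.8% of all genes and 8.25% of those at or above the median level, where 13 of the 16 lay. SYPL1, a broadly expressed relative of synaptophysin, fell by 0.34 ± 0.0772 (SE) (limma adjusted p = 0.0458), the 1 change among 12 vesicle proteins outside the symbol rule. With 1 array left out, AMPH kept its call only without shGLDC99 b (limma adjusted p over the 6 fits = 0.0420 to 0.0567). EPN2 (limma adjusted p = 0.0518 to 0.0923) and SYPL1 (limma adjusted p = 0.0548 to 0.129) lost theirs in all 6 such fits. In the lists of the exocyst (8 measured), granule tethers (7), presynaptic scaffolds and effectors (11) and SNARE disassembly (NSF alone), 0 passed the test; the V-ATPase list had no named probe set here.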

How the data were processed

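Total RNA of 6 samples was hybridised to Affymetrix Human Gene 2.0 ST arrays. The authors deposited 1 table of 31135 probe sets with log2 values. No source gives the log base. The highest value, 13.28, is more than a natural log of 16-bit intensities can reach (11.09), so log2 is inferred and every fold rests on it. Partek was used, per the submitters' processing notes. Its background correction and normalization were not given in the sources used. Array medians were nearly equal, so the values were used as deposited. Precision is limited by the number of arrays.

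The platform annotation gave 15098 probe sets 1 gene symbol, 0 several and 16037 none; all 15098 matched the reference by Entrez ID. Each of 14779 genes was represented by its brightest probe set by mean over the 6 arrays. Differences (shGLDC99 minus shGFP) were tested over all genes with limma 3.58.1 in R 4.3.3 (lmFit, eBayes, Benjamini-Hochberg), and the code was checked on simulated data. Rose, fell and changed mean an adjusted p under 0.05. Named members passed this, or had groups without overlap and a size of at least 0.3, or belonged to a fixed set of classical synaptic genes; changed genes of the neighbouring lists were named too. Other members and overlapping genes were named to complete counts, after their values were seen. Members and lists were chosen with earlier results of these data known. Alternatives were a second quantile normalization, median centring, leaving out the dimmest 40% of genes, averaging probe sets, a replicate block, an intensity trend, testing all probe sets, and leaving out each array. Promoters are from RefSeq, GRCh38.p14. No build is stated for the array, so gene coordinates are not given.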

Additional observations from a re-analysis of the deposited data

How the results depend on the processing

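Among members, 7 rose and 6 fell as reported. Leaving out 1 array gave 3 to 6 rises and 4 to 5 falls, and over all genes 207 to 240 rises and 238 to 327 falls against 550 and 709. The share of all genes called was 3.12% to 3.69% in these fits. Without the dimmest 40% of genes 13 members rose (969 and 1252 genes rose and fell), and with a prior variance that follows intensity 13 members rose (1088 and 1350 genes). The genes called were 25% of those in the former fit and 16.5% in the latter, against 8.52% as reported. Testing all probe sets left 361 genes higher. The replicate letters are not shown to pair arrays: deviations of same-letter arrays from their group means correlated at -0.01 to 0.02. With the replicate block 3 members rose and 2 fell (103 and 126 genes), and the 5 were CADPS, RIMS1, STXBP5, SYT11 and VAMP1. Fewer residual degrees of freedom are part of the block and of each fit with an array left out. The UNC13A difference, not past the threshold, ran from -0.039 without shGLDC99 a to 0.0057, the opposite sign, without shGLDC99 c. Over the genes named by rule and all alternatives, 285 values stayed on their side of the threshold, 66 lost it and 10 gained it. The 285 include genes not past the threshold as reported, whereas only genes past it could lose it. Among the 13 changed members, calls kept ran from 2 of 12 alternatives (STXBP2) and 4 of 13 (STX6) to 13 of 13. Probe sets below the median gene level (STXBP2, SYT10, and SYN3 in shGFP cells) may lie near background, which limits their folds.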
